A study of Mus musculus with 4 samples.

Results

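The loci described here are those of the 7 mouse genes of the Fos and Jun families, Fos, Fosb, Fosl1, Fosl2, Jun, Junb and Jund, read out as open chromatin by ATAC-seq in mesenchymal stem cells (MSCs) from bone. A peak was counted as a member when it overlapped the span from 10 kb before to 10 kb past a gene in the GENCODE M21 annotation. This took in 30 of the 128055 peaks of the table. Of these, 7 were promoter peaks, 1 for each gene and within 1 kb of its start, 1 lay over a gene body, 5 lay upstream and 17 downstream. The peak caller had assigned 21 of them to both culture conditions and 9 to hypoxia only. The peaks were selected on position alone, but the family was chosen by the normoxia against hypoxia differences of these same 4 libraries, as earlier results had shown them, so all counts and false discovery rates (FDRs) below are descriptions.

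The cells came from C57BL/6N mice aged 3 to 5 months with no allele or transgene named. Hind-limb bone was cut up and treated with collagenase, cells and bone chips were grown in 2% O2, and MSCs were sorted as CD45-/Ter-119-/Sca-1+/CD140a+ cells. The sorted cells were then divided, so that hypoxia-cultured cells stayed in 2% O2 and normoxia-cultured cells were moved to 21% O2 for a week, both in α-MEM with 5% CO2 at 37°C, with 2 libraries per condition. All cells, the normoxia group included, had therefore been grown in 2% O2 first, and the comparison is of cells in culture and not of bone in the animal. The study describes the 2 libraries of a condition as independent experiments.

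Fos and Jun proteins are leucine zipper transcription factors that pair to form activator protein-1 (AP-1). Jun proteins can pair with each other or with Fos proteins, whereas Fos proteins need a partner, and the pairs bind the element TGACTCA, known as the TRE, or the related cyclic AMP response element (CRE) TGACGTCA. Many of the genes are immediate early genes, which serum, growth factors and stress switch on within minutes through MAP kinases, serum response factor and CREB. In the mesenchymal lineage AP-1 is known for its part in proliferation, in the expression of matrix and protease genes, and in bone formation, where Fosl1, Fosl2 and the Fosb isoform ΔFosB act.

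The libraries held an inferred 26680936 to 29965523 reads. This takes the smallest nonzero value of each library as a single read on a scale of 10000000 reads, and the shares below rest on it. A larger share of them lay in nuclear peaks in hypoxia (49.2 and 53.2%) than in normoxia (31.0 and 35.2%), and the same held for mitochondrial peaks (7.77 and 9.13% against 1.5 and 2.34%). Since the libraries are bulk samples, fewer cells with an open site and less opening per cell cannot be told apart. The scaling of the libraries decides where the zero of a fold change lies, and the part of these shares in the results was not tested. Relative log expression (RLE) size factors set the median of all peaks to -0.0039 on the log2 scale, and this was the main scaling. All 10 mesenchymal marker genes had a promoter peak, with summed values of 2118 and 2259 in hypoxia against 1211 and 1282 in normoxia. Of their 14 promoter peaks, 3 were called lower in normoxia at an FDR under 0.01 and 0 higher, beside 16.7% and 0.441% of all promoter peaks. The peak at Eng was higher in normoxia but not called (log2 fold change 0.73, FDR 0.0257). Of the blood markers, Spi1 had a promoter peak (14.9 and 10.2 against 7.87 and 13.02) and none was listed at Ptprc, Itgam or Cd3e. Of 3 endothelial markers only Pecam1 had one (sums 14.5 and 20.1 against 13.1 and 18.4).

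Promoters of this family are known for elements that respond to the signals named above, and those of Fos, Fosb, Jun and Jund are shown because they hold a CArG box, TGACATCA or a whole CRE. They were read from GRCm38.p6 (mm10), 5′ to 3′ along each gene's strand, and distances count from the GENCODE start. In the Fos promoter (chr12:85473560-85473859, plus strand) capitals mark a CArG box, the core that serum response factor binds, at -309, the letters CGTCA just behind it, and the CRE core TGACG.
Fos: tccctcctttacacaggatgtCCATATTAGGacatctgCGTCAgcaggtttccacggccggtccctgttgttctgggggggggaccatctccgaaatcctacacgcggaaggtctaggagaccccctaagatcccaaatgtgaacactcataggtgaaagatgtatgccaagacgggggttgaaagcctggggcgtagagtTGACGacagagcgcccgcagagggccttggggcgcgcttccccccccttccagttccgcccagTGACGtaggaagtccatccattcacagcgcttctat
In the Fosb promoter (chr7:19310052-19310341, minus strand) capitals mark the same elements, with the CArG box at -266.
Fosb: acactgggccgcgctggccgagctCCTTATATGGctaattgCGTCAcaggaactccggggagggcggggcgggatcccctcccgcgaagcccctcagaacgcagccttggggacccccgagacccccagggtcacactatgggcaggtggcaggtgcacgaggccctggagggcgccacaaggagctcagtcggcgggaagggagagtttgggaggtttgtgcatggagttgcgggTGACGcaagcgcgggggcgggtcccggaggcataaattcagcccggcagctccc
In the Jun promoter (chr4:95052223-95052422, minus strand) capitals mark TGACATCA at -45, a variant of the AP-1 element known for binding Jun with Atf2.
Jun: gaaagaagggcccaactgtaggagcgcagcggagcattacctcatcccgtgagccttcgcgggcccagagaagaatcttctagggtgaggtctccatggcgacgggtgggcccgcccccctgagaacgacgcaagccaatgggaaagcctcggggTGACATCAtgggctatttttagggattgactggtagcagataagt
At Jund (chr8:70698724-70698753, plus strand) capitals mark a whole CRE at -214.
Jund: ccccacccccaTGACGTCAacccacaatgc

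In both Fos and Fosb, 7 bases separate the CArG box from CGTCA. This spacing was noticed after the sequences had been read. It was searched along each gene's strand and in this order only, over the 350 bases before the starts of 21951 protein-coding genes. The spacing was held by 3 genes, Fos, Fosb and Dusp5, the last of which encodes a nuclear phosphatase of ERK. The stretches are set side by side below, with the CArG box and CGTCA in capitals, from chr12:85473572-85473611 (plus), chr7:19310287-19310326 (minus) and chr19:53529064-53529103 (plus, box at -36).
Fos: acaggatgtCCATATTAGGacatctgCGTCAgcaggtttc
Fosb: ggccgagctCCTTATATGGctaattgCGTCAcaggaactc
Dusp5: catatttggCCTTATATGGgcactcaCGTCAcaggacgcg
The Dusp5 promoter peak had deposited values of 303 and 317 in hypoxia against 177 and 183 in normoxia, with a log2 fold change of -0.30 in the limma fit (FDR 0.0426), which did not pass the threshold of 0.01.

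Motifs were searched on both strands in the same 350 bases before all 21951 starts. A CArG box, CC followed by 6 letters A or T and GG, stood in 2 of the 7 genes and in 1.91% of all genes. TGACATCA stood only in Jun among the 7 (3.35% of all genes), and TGACGTCA only in Jund (2.09%). The CRE core TGACG, which the whole CRE contains, stood in 7 of 7 (22.8%), and the GC box GGGCGG in 6 of 7, all but Junb (41.4%). The TRE stood in 0 of 7 (5.30%), and ACGTG, the core that hypoxia-inducible factors bind, stood in Fosl2 alone (22.4%). No match says only that these letters are not in this window.

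The promoter peaks of the family were broad. They spanned 7000 to 30000 bp, beside a median of 2200 bp over the 17670 promoter peaks of protein-coding genes, of which 5.85% were at least 7000 bp wide. All of them reached beyond the start into the gene, and those of Fos, Fosb, Fosl2, Jun, Junb and Jund ran past its 3′ end. Deposited values were taken as reads per 10000000 reads of the library and are not divided by width, so levels are compared between genes per kb.

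In hypoxia the densest promoter peak of the 7 was that of Jun (118 and 122 per kb), which encodes the Jun protein of the classic Fos and Jun pair, followed by Fos (96.3 and 102.03). Jund, a family member known for steady rather than induced expression, had 82.7 and 82.5 and Fosb 77.6 and 84.7, and their ranges overlapped. Junb, which often opposes Jun, followed with 76.2 and 71.8. Fosl2 (32.0 and 32.5) and Fosl1 (25.2 and 25.3), the Fos-related antigens that lack a transactivation domain of the Fos kind, stood below the other 5. The median over all promoter peaks, as a mean of the 4 libraries, was 24.0 per kb. In normoxia Jun (56.4 and 70.2) and Fos (48.3 and 50.3) again came first and Fosl2 (19.6 and 19.8) and Fosl1 (13.8 and 16.7) last. Between them Fosb (39.9 and 45.0) overlapped Junb (38.1 and 40.1), and Junb overlapped Jund (34.0 and 40.4). By its mean, Jund had rank 3 of 7 in hypoxia and rank 5 in normoxia.

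**Figure D1:**
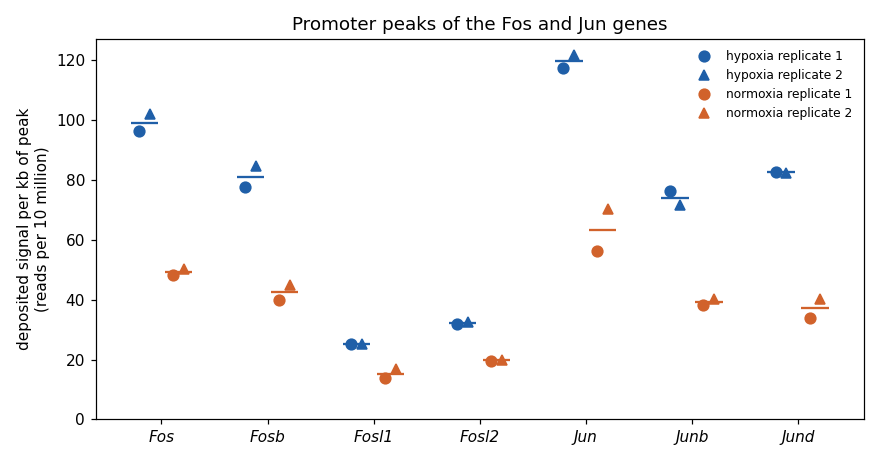
Deposited signal per kb (reads per 10000000 reads of the library) of the promoter peak of each gene, for hypoxia (blue) and normoxia (orange), with a circle for replicate 1, a triangle for replicate 2 and a line at the mean. For each gene both normoxia points lie below both hypoxia points, and Jun runs from 56.4 to 122 whereas Fosl1 runs from 13.8 to 25.3.

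For all 7 promoter peaks the 2 normoxia values lay below the 2 hypoxia values as deposited, which was true of 59.5% of all peaks, of 15205 of the 17670 promoter peaks and of 1004 of the 1034 promoter peaks of at least 7000 bp. After RLE scaling 5 of the 7, those of Fos, Fosb, Jun, Junb and Jund, were called lower in normoxia by limma at an FDR under 0.01 (Benjamini-Hochberg over all peaks), beside 16.7% of all promoter peaks and 4.57% of all peaks. None was called higher (0.441% of promoter peaks). The median log2 fold change, normoxia over hypoxia, was -0.45 over the 7 and -0.27 over all promoter peaks. Of the 1034 promoter peaks of at least 7000 bp, 305 were called lower and the median was -0.26. Among the 12806 peaks of highest mean value 3631 were called lower and the median was -0.33. Under cyclic loess, which removes the trend of the fold change with signal, 6 of the 7 had a positive fold change and 0 were called lower, where 1.31% of all peaks were.

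Jund had the largest difference of the 7. Its promoter peak (chr8:70696001-70706400, over the gene, the neighbouring Iqcn and its promoter) had values of 861 and 858 in hypoxia against 353 and 420.2 in normoxia. The hypoxia values were 2.22-fold higher, the groups did not overlap, and the log2 fold change after RLE scaling was -0.68 (SE 0.085, FDR 3.86e-06 in limma). Jund alone stayed below 0 under cyclic loess (-0.15, FDR 0.170) and alone was called lower when the libraries were set to equal totals over peaks (-0.39, FDR 0.000429). These totals include the mitochondrial peaks, and totals over nuclear peaks alone were not tried.

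The promoter peak of Fos, the classic immediate early gene (chr12:85471301-85480500), had values of 886 and 939 in hypoxia against 445 and 463 in normoxia. This was 2.01-fold higher in hypoxia, and the fitted log2 fold change was -0.53 (SE 0.081, FDR 6.37e-05). That of its paralogue Fosb (chr7:19293201-19313100, also over exons of Rtn2) was the strongest of the 30 peaks, at 1545 and 1685 against 795 and 895, and the fitted log2 fold change was -0.46 (SE 0.070, FDR 6.78e-05). In both genes the lower hypoxia library stood far above the higher normoxia library as deposited. Under cyclic loess Fos was at 0.014 and Fosb at 0.16, neither called.

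The promoter peak of Jun (chr4:95047201-95054900, also over the antisense gene Junos) had values of 905 and 938 in hypoxia against 434 and 541 in normoxia, and the fitted log2 fold change was -0.45 (SE 0.083, FDR 0.000505). The 2 normoxia libraries were further apart here than at Fos. ATAC-seq reads carry no strand, so Jun and Junos cannot be told apart. Junb (chr8:84972901-84986800) had 1059.8 and 997 against 529.6 and 557, and the fitted log2 fold change was -0.44 (SE 0.082, FDR 0.000485). Under cyclic loess both were above 0, at 0.10 and 0.12, and neither was called.

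The 2 Fos-related antigens did not pass the threshold. Fosl1 (chr19:5444001-5451000) had 177 and 177 in hypoxia against 96.7 and 117 in normoxia, and the fitted log2 fold change was -0.25 (SE 0.12, FDR 0.148). Fosl2 (chr5:32132101-32162100), the widest of the peaks, had 961 and 975 against 588 and 595, with -0.23 (SE 0.080, FDR 0.0445). Both had lower deposited values in normoxia in both libraries, and both changed sign with the scaling. Set to equal totals, mitochondrial peaks included, Fosl1 was at 0.035 and Fosl2 at 0.059. Under cyclic loess Fosl2 was called higher in normoxia (0.33, FDR 0.00243), as were 1.42% of all peaks.

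The clearest differences lay not at the starts but directly behind the 3′ edge of the promoter peak. At all genes but Fosl1 the peak caller had set a peak assigned to hypoxia only against that edge. At Fosb it was 100 bp wide, with values of 2.48 and 5.78 in hypoxia against 0 and 1.001 in normoxia, and was not called (FDR 0.0381). The 5 wider pieces, at Fos, Fosl2, Jun, Junb and Jund, began 1584 to 5785 bp past the end of the gene and are described in full. Less signal in normoxia is what the assignment selects for, and it was made from these same libraries. The sizes and FDRs of these pieces are therefore descriptions and no test of a difference. Counting either side, 6 of the 7 promoter peaks touched a hypoxia-only peak, beside 271 of the 1034 promoter peaks of at least 7000 bp (26.2%). Among all peaks 6.84% were hypoxia-only. Their median width was 300 bp and the median of their mean values 1.82, so the pieces at Jun and Fos, 1700 and 2300 bp wide, were far broader and stronger than most.

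**Figure D2:**
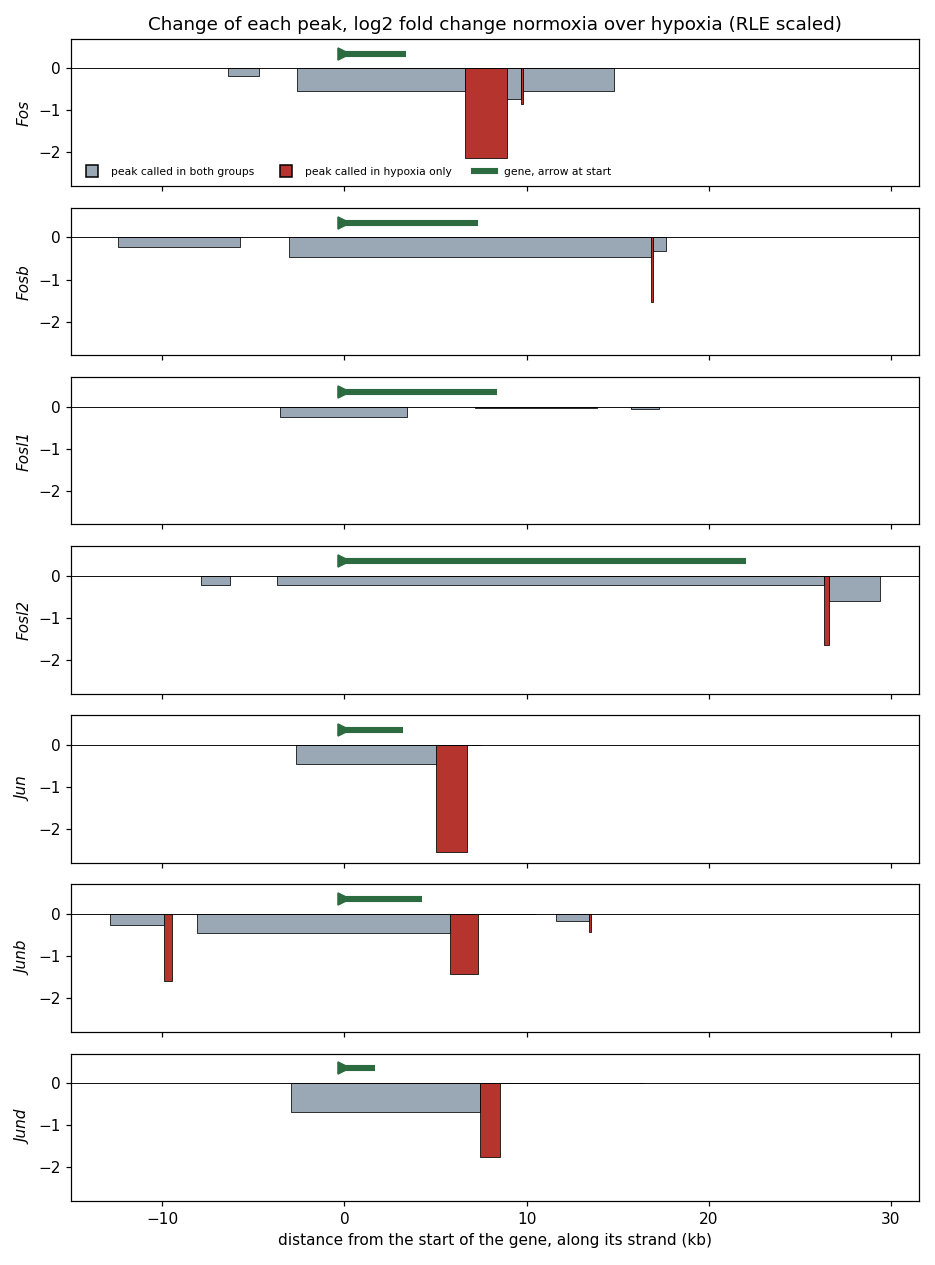
Fitted log2 fold change, normoxia over hypoxia after RLE scaling (vertical axis), of each member peak against the distance from the start of its gene along its strand in kb (horizontal axis). Each bar is as wide as its peak, grey where the peak was called in both groups and red where it was called in hypoxia only, the green line is the gene, and a peak with a fold change near 0 shows as a thin line. Red bars behind Jun and Fos reach -2.55 and -2.13, beyond any grey bar.

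At Jun the piece (chr4:95045501-95047200, 5022 to 6721 bp behind the start, in an intron of Gm12703) had values of 129.5 and 128 in hypoxia against 14.2 and 16.0 in normoxia. This was 8.52-fold higher in hypoxia, and the fitted log2 fold change was -2.55 (SE 0.16, FDR 1.48e-12 in limma), the lowest of the 30 peaks. At Fos the piece (chr12:85480501-85482800, intergenic) had 118 and 132 against 21.0 and 18.7, 6.29-fold, and the fitted log2 fold change was -2.13 (SE 0.16, FDR 8.24e-11). Each normoxia library stood far below either hypoxia library at both genes. The normoxia values still rest on 38 and 48 recovered reads at Jun and 56 and 56 at Fos.

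The other 3 pieces were weaker. At Jund (chr8:70706401-70707500, in an intron of Iqcn) the values were 38.2 and 36.0 against 7.87 and 6.67, and the fitted log2 fold change was -1.76 (SE 0.24, FDR 1.08e-05). At Junb (chr8:84971401-84972900, over an exon of Prdx2) they were 21.6 and 14.96 against 4.50 and 4.00, with -1.43 (SE 0.31, FDR 0.00181). At Fosl2 (chr5:32162101-32162400) they were 11.7 and 13.6 against 2.25 and 2.34, with -1.65 (SE 0.35, FDR 0.00161), from 6 and 7 reads in normoxia. All 5 pieces, and so 5 of the 9 hypoxia-only members, passed the threshold, beside 721 of the 8754 hypoxia-only peaks. Passing is no independent support, since the peak caller assigned these peaks from the same libraries. Those 8754 had a median log2 fold change of -1.05, but most were weaker than these pieces (median of mean values 1.82).

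To set the pieces against their own promoter without any scaling of libraries, the signal per kb of each piece was taken as a percent of that of its promoter peak in the same library. At Jun it was 64.8 and 61.9% in hypoxia against 14.9 and 13.4% in normoxia. At Fos it was 53.2 and 56.2% against 18.9 and 16.2%, and at Jund 42.0 and 39.7% against 21.1 and 15.02%. Since the pieces are peaks assigned to hypoxia only, the assignment selects for a lower percent in normoxia, and the values are a description. At Fosl2 the short piece was denser than its very wide promoter peak in hypoxia, at 121 and 139% against 38.3 and 39.2%. Junb had the smallest separation, at 18.9 and 13.9% against 7.87 and 6.66%. The groups did not overlap at any of the 5 genes.

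**Figure D3:**
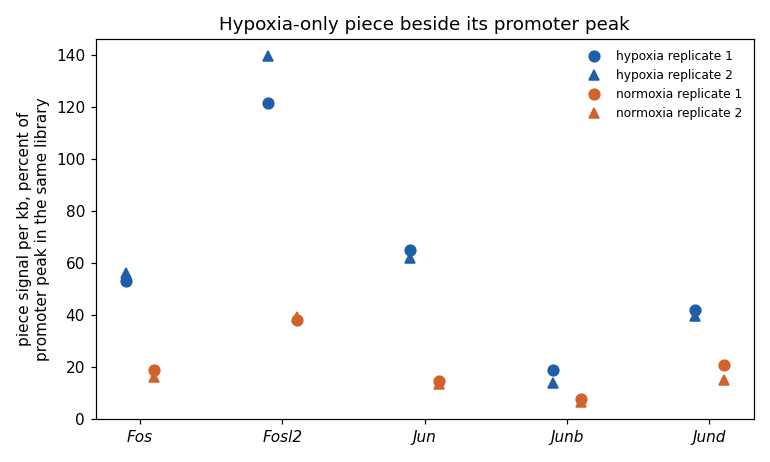
Signal per kb of the hypoxia-only piece as a percent of that of the promoter peak in the same library (vertical axis) for the 5 genes with a piece wider than 100 bp, in hypoxia (blue) and normoxia (orange), with a circle for replicate 1 and a triangle for replicate 2. Jun has 64.8 and 61.9% in hypoxia against 14.9 and 13.4% in normoxia, and at no gene do the groups overlap.

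The sequence at the centre of the 2 strongest pieces is shown because these carried the largest differences at the family's loci. Neither piece held a TRE or a CRE, and Jun's held no match to any AP-1 or CArG letters searched, whereas Fos's held 1 TGACG outside the bases shown. Repeats covered 3.76% of the piece at Jun and 17.8% of that at Fos, beside a median of 13.8% over all peaks, and 30.7 to 48.1% of the other 3. The bases are the middle 200 along the gene's strand, chr4:95046251-95046450 (minus) and chr12:85481551-85481750 (plus) of GRCm38.p6, with nothing marked.
Jun piece: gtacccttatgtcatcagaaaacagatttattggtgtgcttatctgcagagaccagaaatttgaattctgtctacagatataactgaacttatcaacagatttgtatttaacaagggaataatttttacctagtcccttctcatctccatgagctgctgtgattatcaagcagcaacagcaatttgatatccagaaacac
Fos piece: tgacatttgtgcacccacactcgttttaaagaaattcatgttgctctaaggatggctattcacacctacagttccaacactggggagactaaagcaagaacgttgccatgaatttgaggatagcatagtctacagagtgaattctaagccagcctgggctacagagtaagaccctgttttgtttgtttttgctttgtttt

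Beyond the piece, the Fos locus went on downstream. A small peak at 8911 to 9710 bp behind the start had 21.9 and 19.4 in hypoxia against 10.1 and 7.34 in normoxia (log2 fold change -0.72, FDR 0.0591, not called). Behind a 100-bp hypoxia-only sliver, a peak of 5000 bp (chr12:85483701-85488700, 9811 to 14810 bp behind the start, intergenic) was close to the strongest of the family outside the promoters, at 294 and 326 against 139 and 169. It was called lower, and the fitted log2 fold change was -0.53 (SE 0.11, FDR 0.000931), the same as at the Fos promoter to 2 decimals. At Fosl2 the peak behind the piece (chr5:32162401-32165200) was also called lower, at 81.7 and 71.1 against 35.6 and 35.4, with -0.61 (SE 0.16, FDR 0.00854), although the Fosl2 promoter itself was not called.

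The remaining peaks were not called. Upstream of Fosb the peak of the highest mean outside the promoters, 6700 bp wide (chr7:19315801-19322500, over an exon of D830036C21Rik) had 292 and 292 in hypoxia against 173 and 185 in normoxia, with a log2 fold change of -0.23 (FDR 0.139). Upstream of Junb a peak over the promoter of Hook2 (chr8:84988601-84991600) had 144 and 163 against 93.3 and 88.4, with -0.27 (FDR 0.134). Both kept the promoter's order of the groups as deposited but were small after scaling. Behind Fosl1 a peak over the gene's end and the promoters of Fibp and Ccdc85b (chr19:5454701-5461400) had 149.7 and 142 against 92.6 and 111, with -0.044 (FDR 0.852). Behind the piece of Jund a peak over exons of Iqcn (chr8:70707501-70715400) had 93.4 and 90.1 against 61.5 and 69.7, with -0.0077 (FDR 0.980). At Jund the fold change thus went from -0.68 to -1.76 and back to about 0 within adjoining peaks.

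The other 4 hypoxia-only peaks, at Fos, Fosb and Junb, were 100 to 400 bp wide with deposited values of 5.78 or less, and none was called. The last peaks to fall inside the 10 kb limit included 1 behind Fosb at 9596 bp (8.14 and 8.84 against 6.37 and 3.34) and 1 before Junb at 9883 bp. The nearest peaks outside lay at 10149 bp from Jund (34.0 and 37.1 against 22.9 and 25.4) and at 10290 bp from Fos (67.9 and 67.3 against 57.7 and 48.1).

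Over all 30 peaks, 12 were called lower in normoxia and 0 higher, beside 4.57% and 1.77% of all peaks. None of the 30 was higher at an unadjusted p under 0.05, and edgeR on the recovered reads called the same 12 lower and 0 higher. By class, 5 of 7 promoter peaks, 7 of 17 downstream peaks, 0 of 5 upstream peaks and 0 of 1 gene-body peaks were called. The median log2 fold change was -0.44, and it was -0.25 over the 21 peaks of both groups and -1.60 over the 9 hypoxia-only peaks. As deposited, 30 of 30 had both normoxia values below both hypoxia values, where 59.5% of all peaks did, and 0 had both above, where 6.94% did. At the 100-bp hypoxia-only peak of Junb, replicate 2 of each condition had 1 read, so only the library totals separate these values (0.340 against 0.334). After scaling 21 of 30 had both below, where 29.6% of all peaks did and 27.4% had both above. Without hypoxia replicate 1 or without hypoxia replicate 2, limma called 0 members and 0 of all peaks, with 14 and 13 members at an unadjusted p under 0.05 and median log2 fold changes over the members of -0.44 and -0.50.

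**Figure D4:**
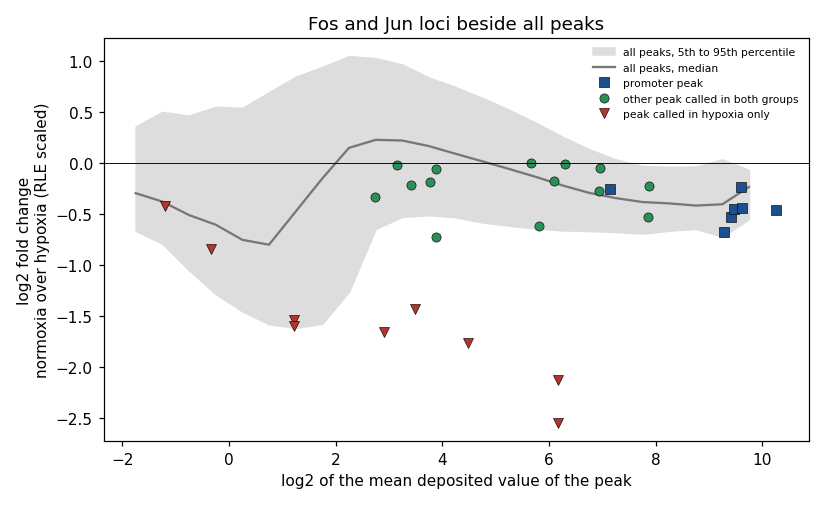
Fitted log2 fold change, normoxia over hypoxia after RLE scaling (vertical axis), against the log2 of the mean deposited value (horizontal axis) of the 30 member peaks, with the median (line) and the range of all peaks that leaves out 5% at either end (grey). Promoter peaks (squares) lie at the strong end where the line itself is below 0. Jund, the lowest of them at -0.68, lies inside the grey span. The 5 larger hypoxia-only pieces (triangles) lie below it.

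Summed over all peaks of a locus, the deposited signal was higher in hypoxia at every gene. It was 1339 and 1433 against 627 and 667 at Fos (2.14-fold, 19100 bp covered), 1043 and 1078 against 455 and 565 at Jun (2.08-fold, 10200 bp) and 992 and 984 against 423 and 497 at Jund (2.15-fold, 19400 bp). Fosb (1.86-fold) and Junb (1.84-fold) followed. Fosl2 (1.68-fold) and Fosl1 (1.54-fold) had the smallest ratios. The groups did not overlap at any locus (exact permutation p of 0.333 each, the smallest possible). The covered regions are the same in every library. The promoter peak held 95.6% of the Jun signal in normoxia but 86.9% in hypoxia, at Fos 70.1% against 65.8% and at Fosl2 92.9% against 90.4%. The order was the other way at Fosb (82.1% in normoxia against 84.1% in hypoxia), Jund (84.1% against 87.0%), Junb (74.0% against 76.3%) and Fosl1 (48.3% against 51.9%).

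These ratios are on the deposited scale, on which the median of all peaks was itself -0.44 on the log2 scale. The 7 promoter peaks ranged from -1.15 to -0.71 as deposited. Equal totals over all peaks, the mitochondrial ones included, move the median of all peaks to 0.26. At these totals the 7 promoter peaks ranged from -0.39 to 0.059 with 1 called lower. With quantile normalization they ranged from -0.31 to 0.062 with 2 called lower, and under cyclic loess from -0.15 to 0.33 with 0 called lower and 1 higher. The 5 pieces were called lower under each of these 5 scalings, with fold changes of -3.01 to -1.86 as deposited, -2.27 to -1.18 at equal totals and -2.44 to -1.66 under cyclic loess. The sign at 6 of the 7 promoters changed with the scaling, while that of the pieces did not. Their assignment to hypoxia only selects for lower values in normoxia but does not fix the sign. Of the 8754 hypoxia-only peaks, 9 had both normoxia values above both hypoxia values as deposited.

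**Figure D5:**
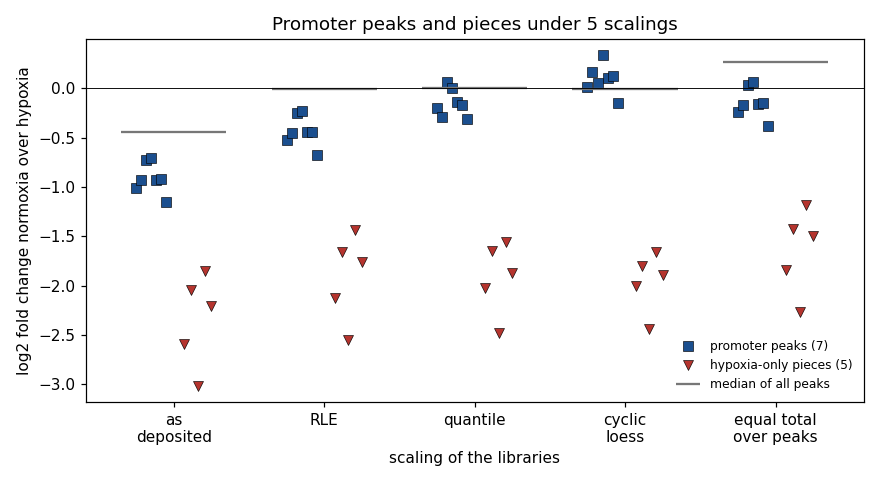
Log2 fold change, normoxia over hypoxia (vertical axis), of the 7 promoter peaks (squares) and the 5 hypoxia-only pieces (triangles) under 5 scalings of the libraries (horizontal axis), with a grey line at the median of all peaks. The squares move from -1.15 to -0.71 as deposited up to -0.15 to 0.33 under cyclic loess, while every triangle stays at -1.18 or lower.

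The sequence of the peaks held further AP-1 elements away from the starts. The TRE occurred 24 times in the promoter peaks, or 0.245 per kb, beside 0.189 per kb over all promoter peaks and 0.337 over all peaks, and 11 of the 30 peaks held at least 1. The promoter peak of Jun held none. Fosl2 had 1 at 53 bp behind its start and Fosl1 1 at 350 bp. Junb held 7, of which 4 lay within 415 bp between -7039 and -6631. This cluster is shown from chr8:84985618-84985778 (minus strand), with TGACTCA in capitals for the 3 that fall into the stretch.
Junb upstream: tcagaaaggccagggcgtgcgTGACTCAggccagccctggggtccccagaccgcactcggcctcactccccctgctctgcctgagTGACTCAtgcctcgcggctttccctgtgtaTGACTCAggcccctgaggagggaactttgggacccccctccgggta
None of the 9 hypoxia-only members held a TRE (0.210 per kb over all hypoxia-only peaks). They were only 100 to 2300 bp wide, so few matches would fall into them at that density and nothing is read from this. The GC content of the promoter peaks was 50.5 to 54.5%, near the median of 52.0% over all promoter peaks.

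Other genes of the AP-1 pathway were read at their promoter peaks. Of 16 peaks of dimer partners and related zipper factors, 5 were called lower in normoxia and 0 higher, with a median log2 fold change of -0.30 in the limma fit. Of 36 peaks of kinases, phosphatases and factors upstream, 11 were called lower and 0 higher (median -0.31), and of 25 peaks of AP-1 target genes 13 and 0 (median -0.42). Peaks higher at an unadjusted p under 0.05 included those at Nrl, a partner, and at Mmp3, a target. Over all promoter peaks 16.7% were called lower and the median was -0.27. The lists were drawn up with earlier results of these data known. Under cyclic loess the counts called lower were 0, 1 and 2, and peaks called higher included those of Maff, Mafk and Ccnd1.

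Among the partners, peaks of low p-value were at Nfatc1 (510.3 and 545 against 231 and 290.3, -0.55), which binds DNA together with AP-1, and at Atf2 (223 and 253 against 106 and 129.8, -0.53), the Jun partner named above. Upstream the lowest p-values were at Dusp6 (361 and 334 against 150.3 and 151, -0.72), a phosphatase that ERK signalling induces, Rps6ka3 (211 and 237 against 76.5 and 109, -0.81), the kinase RSK2, which phosphorylates Fos, and Mef2c (149 and 186 against 68.6 and 75.1, -0.73), a factor that drives Jun. Among the targets they were at Timp1 (172 and 188 against 73.8 and 77.1, -0.77), an inhibitor of matrix metalloproteinases, Mt2 (209 and 235 against 95.9 and 102.1, -0.68), a metallothionein, and Fn1 (637 and 718 against 315 and 383, -0.48), fibronectin. All 8 had FDRs under 0.01 in limma, and their groups did not overlap. Other promoter peaks of Mef2c, at 0.025 (FDR 0.959) and -0.14 (FDR 0.702), were not called. Vegfa (212 and 208 against 142 and 124, -0.18, FDR 0.316), Ccnd1 (198 and 210.4 against 164 and 165, 0.16, FDR 0.332, but 0.52 and FDR 0.000979 under cyclic loess) and Il6 (163 and 175 against 87.7 and 106, -0.32, FDR 0.0647) were not called after RLE scaling. These 3 were chosen after their values were seen.

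The promoter peaks whose scaled values over the 4 libraries lay nearest to those of Fos were at Sdc4 (Euclidean distance 0.126 in log2 units), Col1a1 (0.199) and a peak shared by Nr2f6, Ocel1 and Use1 (0.213). Nearest to Jun were a peak shared by Cd151, Cracr2b, Polr2l and Tspan4 (0.098), that of Nr2f6, Ocel1 and Use1 (0.147) and that of Sdc4 (0.159). Sdc4, a cell-surface proteoglycan gene, had 888 and 989.7 in hypoxia against 431 and 492 in normoxia (log2 fold change -0.55), and Fos 886 and 939 against 445 and 463.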

How the data were processed

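ATAC-seq, which reads open DNA by where the transposase Tn5 puts adapters, was done on 4 libraries of mouse bone MSCs, 2 from hypoxia (2% O2) and 2 from normoxia (21% O2). The authors aligned reads to mm10 with Bowtie2, removed duplicates with Picard, and called peaks over all libraries with chromstaR in differential mode (bins of 300 bp, steps of 100 bp, mapping quality of at least 15). The deposited signal, which the authors call RPKM, was taken as a read number per peak times 10000000 over the library total, with no division by width. Within a tolerance of 0.001, 100% of values were whole multiples of the smallest nonzero value of their library, taken as a single read. This does not check the factor of 10000000, so library totals and recovered reads are inferred. Neighbouring bins may count a read more than once, so no counting interval was computed. Medians were 33 to 48 reads per peak, so narrow peaks are imprecise.

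Signal was divided by RLE size factors (1.14 and 1.24 in hypoxia, 0.815 and 0.892 in normoxia) and tested on log2(value + 1), which understates changes of low peaks, with limma 3.58.1 in R 4.3.3 (lmFit, eBayes with trend and robust, two-sided), Benjamini-Hochberg adjusted over all 128055 peaks, at an FDR under 0.01. RPKM-like values are not counts, so a count model, edgeR 4.0.16 on the recovered reads, was an alternative. The limma fit was also run on simulated data in which some peaks were changed, with no trend of the fold change with signal. That run therefore does not bear on the choice of scaling. Peak positions lay within the chromosomes of GRCm38.p6, from which sequences were read. All 7 genes were matched by symbol in GENCODE M21. The members and gene lists were chosen with earlier results of these data known. Peaks named were all promoter peaks of the 7 genes, other members called, the strongest other peak of each gene, the 3 promoter peaks of lowest p called in each direction in each list, and the 3 promoter peaks nearest to Fos and to Jun. Some genes that these rules and the marker lists take in are not reported here. Alternatives were other scalings, pseudocounts, a filter, variance models, spans and leaving out each library.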

Additional observations from a re-analysis of the deposited data

How the results depend on the processing

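The count of members called lower (12) and their median log2 fold change (-0.44) moved with the scaling, the variance model and the libraries. As deposited they were 20 and -0.92, at equal totals over peaks 6 and -0.16, with quantile normalization 7 and -0.24, and under cyclic loess 5 and -0.18, with 1 member called higher. All lower calls at equal totals, with quantile normalization and under cyclic loess were among the 12. A pseudocount of 5 gave a median of -0.35 and a span of 20 kb one of -0.32. Without trend and robust estimation 0 members were called, as were 0 of all peaks, while 14 members had an unadjusted p under 0.05. Leaving out 1 library gave 0 to 13 members, with medians of -0.50 to -0.44, and 0 to 6 promoter peaks. The 0 came without hypoxia replicate 1 and without hypoxia replicate 2, where the lowest FDR of any peak was 0.0232 and 0.0629. A lone library is then assumed to vary like the other group. The 5 promoter peaks called lower became 1 at equal totals, 2 with quantile normalization, and 0 under cyclic loess and without trend and robust estimation. Promoter folds that changed sign were Fosl1 (0.035 at equal totals, 0.062 with quantile normalization, 0.055 under cyclic loess), Fosl2 (0.059, 0.0055 and 0.33) and, under cyclic loess, Fos (0.014), Fosb (0.16), Jun (0.10) and Junb (0.12). The median log2 ratio of locus sums was -0.90 as deposited, -0.42 after RLE scaling and -0.13 at equal totals, and -0.98 to -0.84 leaving out 1 library. Lists called lower 12, 26 and 20 promoter peaks as deposited (partners, upstream, targets). The causes were not tested.

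Libraries of the same number did not deviate together (correlation of deviations from group means across peaks 0.011). With a replicate block, which rests on shared numbers alone, 12 members were called lower, the same 12, and edgeR with RLE or TMM factors called these 12 too. Weak peaks are limited by depth.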
